A study of Mus musculus with 36 samples.

Results

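The regions of accessible chromatin described here are those nearest to the genes of 7 interferon regulatory factors (IRFs), Irf1, Irf2, Irf4, Irf5, Irf7, Irf8 and Irf9, in mouse hematopoietic stem and progenitor cells. Peaks of all 36 ATAC-seq libraries that overlapped by 1 bp or more were merged, and a region was kept when its centre lay nearest to a transcription start site (TSS) of a member among protein-coding genes. This gave 85 of 105005 regions, of which 35 belonged to Irf2, 17 to Irf4, 17 to Irf8, 6 to Irf1, 5 to Irf5, 4 to Irf7 and 1 to Irf9. ATAC-seq reads out DNA that a transposase can reach, so a peak marks open chromatin and is not a measure of transcription.

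IRFs share a DNA-binding domain that reads GAAA repeats. IRF1 is induced by interferon and activates interferon-stimulated genes, whereas IRF2 binds the same elements and can oppose it. IRF4 and IRF8 bind weakly alone and join PU.1 or BATF on composite elements; IRF8 directs progenitors towards monocytes and dendritic cells and away from neutrophils, and IRF4 acts in lymphocytes and dendritic cells. IRF5 and IRF7 act downstream of pattern recognition receptors, and IRF9 is the DNA-binding subunit of the interferon-activated ISGF3 complex.

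C57BL/6 mice were young (10 weeks) or aged (20 months), and by the study's account marrow of each age was pooled and sorted in duplicate. The libraries of one group may thus be separate sorts of one pool, and the sources used here do not give whether the 4 HSC libraries of an age, which the study calls biological replicates, came from one pool or several. The p-values below measure the spread between libraries, which may be technical. HSCs had 4 libraries per age and were lineage-negative cells with Sca-1 and c-kit that carried CD150 but neither CD34, CD48 nor Flt3. The other fractions had 2 per age: MPP1 (CD34+ CD150+ CD48- Flt3-), MPP2 (CD34+ CD150+ CD48+ Flt3-), MPP3 (CD34+ CD150- CD48+ Flt3-), MPP4 (as MPP3 but Flt3+), granulocyte-macrophage progenitors (GMPs, Sca-1- c-kit+ FcgR+ CD34+), megakaryocyte-erythrocyte progenitors (MEPs, Sca-1- c-kit+ FcgR- CD34-) and common lymphoid progenitors (CLPs, Lin- Sca-1 low c-kit low, labelled IL-7+). No group carried a mutation or a treatment, and in sorted populations more cells with an open region and a more open region per cell cannot be told apart.

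Mapped reads had been brought to the same number in all libraries by the authors, but the peak lists do not give that number, so the absolute depth behind a value is unknown. The number of peaks per library was 52576 to 63288 in GMPs, 9581 to 11041 in MEPs and 27087 to 40157 in the other fractions. Fold enrichment (FE) is the highest column 7 of a library's peaks in a region, the pileup over the local background as MACS2 gave it. Its median over the 5335 regions called in all 36 libraries was 18.5 to 20.3 in GMPs, 7.51 to 7.77 in MEPs and 11.6 to 15.5 elsewhere, and the smallest peak was 132 to 139 bp wide in GMPs against 163 to 191 bp in the rest. Tests of FE therefore used log2 values minus that median for each library. As a check of the labels, the TSS region of the neutrophil elastase gene Elane was called in the 4 GMP libraries alone and that of Rag1 in 2 CLP libraries alone. The other CLP markers looked at did not set CLPs apart. The TSS region of Il7r was called in all MPP4, GMP and CLP libraries, with a mean FE of 13.2 in GMPs and 8.27 in CLPs. The region nearest to Dntt had a mean FE of 5.67 in 3 CLP libraries against 16.4 in HSCs, and the TSS region of Ebf1 was called in 29 libraries with a mean of 12.8 in GMPs and 6.24 in 3 CLP libraries. The regions nearest to the erythroid genes Gata1 and Klf1 were called in 1 of 4 MEP libraries each, so these MEP markers were mostly absent from the peak lists. Of the HSC markers, the TSS region of Hlf had a mean FE of 13.8 in HSCs and 10.6 in GMPs. For Meis1 the means were 7.8 in HSCs and 13.35 in GMPs. A TSS region of Mecom was called in 0 HSC and 3 GMP libraries, and that of Procr in 4 HSC and 3 GMP libraries. Apart from Hlf, these markers thus did not set HSCs apart from GMPs. Among markers of mature cells, the TSS region of Itgam was called in 3 of 4 GMP and 2 of 24 HSC and MPP libraries. The sort of GMPs took c-kit+ cells negative for lineage markers, among them Gr-1, and the part of mature myeloid cells in the GMP results below was not tested.

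The sequences below are those of the regions on which the results turn, 5′ to 3′ on the plus strand of mm10. Regions are named by the distance of their centre from the most 5′ TSS of the gene. Capitals mark matches, on either strand, to any of 10 letter patterns: ISRE core GAAANNGAA, PU.1-IRF composite core GGAANNGAA, GAS TTCCNGGAA or TTCNNNGAA, PU.1 GAGGAAGT, CEBP TTGCNNAA and AP-1 TGANTCA. The RUNX pattern was TGTGGTT. For GATA factors the letters were AGATAAG. The E-box was searched for as CAGCTG. The first GAS pattern lies within the second, and the composite and PU.1 patterns share GGAA. The first 6 sequences are 181 bases centred on the median summit, and both promoters, from RefSeq on GRCm38.p6, are the 180 bases before the start site.
Irf8 -20.9 kb, chr8:120715344-120715524, HSC and MPP element: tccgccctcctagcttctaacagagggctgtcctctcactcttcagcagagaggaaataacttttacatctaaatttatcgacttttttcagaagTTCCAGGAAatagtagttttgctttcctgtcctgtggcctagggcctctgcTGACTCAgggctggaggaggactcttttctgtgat
Irf8 +56.6 kb, chr8:120792792-120792972, GMP element: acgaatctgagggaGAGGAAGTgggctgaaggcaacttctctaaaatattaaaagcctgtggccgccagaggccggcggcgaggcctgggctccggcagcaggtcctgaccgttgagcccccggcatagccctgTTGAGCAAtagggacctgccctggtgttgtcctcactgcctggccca
Irf8 +41.0 kb, chr8:120777272-120777452, CLP element: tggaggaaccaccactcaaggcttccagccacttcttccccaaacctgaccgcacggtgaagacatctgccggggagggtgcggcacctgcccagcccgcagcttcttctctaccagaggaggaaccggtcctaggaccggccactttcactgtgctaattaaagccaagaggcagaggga
Irf2 +109.4 kb, chr8:46848996-46849176, HSC and MPP element: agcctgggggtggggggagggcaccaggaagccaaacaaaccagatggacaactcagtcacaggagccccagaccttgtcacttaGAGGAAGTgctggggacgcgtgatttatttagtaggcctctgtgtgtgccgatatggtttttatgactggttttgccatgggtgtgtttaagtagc
Irf2 +38.5 kb, chr8:46778202-46778382, the region with the smallest unadjusted p between ages: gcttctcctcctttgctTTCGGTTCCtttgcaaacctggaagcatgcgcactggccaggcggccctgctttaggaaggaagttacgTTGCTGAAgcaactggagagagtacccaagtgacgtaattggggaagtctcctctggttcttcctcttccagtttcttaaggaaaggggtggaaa
Irf1 -7.0 kb, chr11:53762917-53763097, GMP element: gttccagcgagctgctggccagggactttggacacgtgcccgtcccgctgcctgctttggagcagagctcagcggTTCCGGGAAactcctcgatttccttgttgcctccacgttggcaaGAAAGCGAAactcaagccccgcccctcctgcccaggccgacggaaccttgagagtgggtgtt
Irf1 promoter, chr11:53769834-53770013: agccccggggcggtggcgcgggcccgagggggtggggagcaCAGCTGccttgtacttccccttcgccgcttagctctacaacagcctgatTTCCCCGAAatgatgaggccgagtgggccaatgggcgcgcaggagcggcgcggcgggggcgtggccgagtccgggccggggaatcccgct
Irf8 promoter, chr8:120736178-120736357: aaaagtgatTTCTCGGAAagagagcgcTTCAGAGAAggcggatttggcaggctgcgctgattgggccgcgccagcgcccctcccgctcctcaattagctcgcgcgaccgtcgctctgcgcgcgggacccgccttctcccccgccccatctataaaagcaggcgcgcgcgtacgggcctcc

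The Irf8 -20.9 kb element held the narrow GAS pattern TTCCAGGAA and an AP-1 match, and the Irf8 +56.6 kb element held GAGGAAGT and a CEBP match. The Irf8 +41.0 kb element held none of the patterns in this window. The Irf1 -7.0 kb element held both TTCCGGGAA and the ISRE core GAAAGCGAA. The Irf1 promoter held TTCCCCGAA from -90 relative to the start site, and the Irf8 promoter held TTCTCGGAA from -171 and TTCAGAGAA from -153. Among 32851 RefSeq promoters, in windows that run a little past the start site, 8.3% held the wide GAS pattern and 1.15% the narrow one.

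More of the IRF regions were called in GMPs, and fewer in MEPs, than in the multipotent fractions. Each GMP library had a peak in 42 to 54 of the 85 regions, each HSC or MPP library in 22 to 33, each CLP library in 26 to 38 and each MEP library in 3 to 6. In GMPs, 24 of 85 regions (28.2%) were called in more libraries than in HSCs and MPPs and 4 (4.71%) in fewer (two-sided Fisher's exact test, Benjamini-Hochberg adjusted over all regions). The same shares over all 105005 regions were 22.9% and 2.05%, so the excess in GMPs was near that of the whole catalogue. In CLPs 2 regions (Irf8 +41.0 kb and Irf2 +23.0 kb) were called in more libraries and 3 in fewer, against 3.06% and 1.81% of all regions. In MEPs none was called in more libraries and 15 (17.6%) in fewer, against 0.69% and 11.9%. GMP libraries held the most peaks and MEP libraries the fewest. When each library was held to its 9581 highest peaks, 3 regions passed as called in more GMP libraries and 2 as called in fewer MEP libraries, and none in CLPs. The shares of all regions under this setting are not given here, so these counts show no excess or deficit of IRF regions. Of the 48 single results by calls that passed, 4 still did so then: Irf4 +70.9 kb and Irf2 +71.7 kb in GMPs, and Irf4 +37.1 kb and Irf2 +130.0 kb in MEPs.

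**Figure D1:**
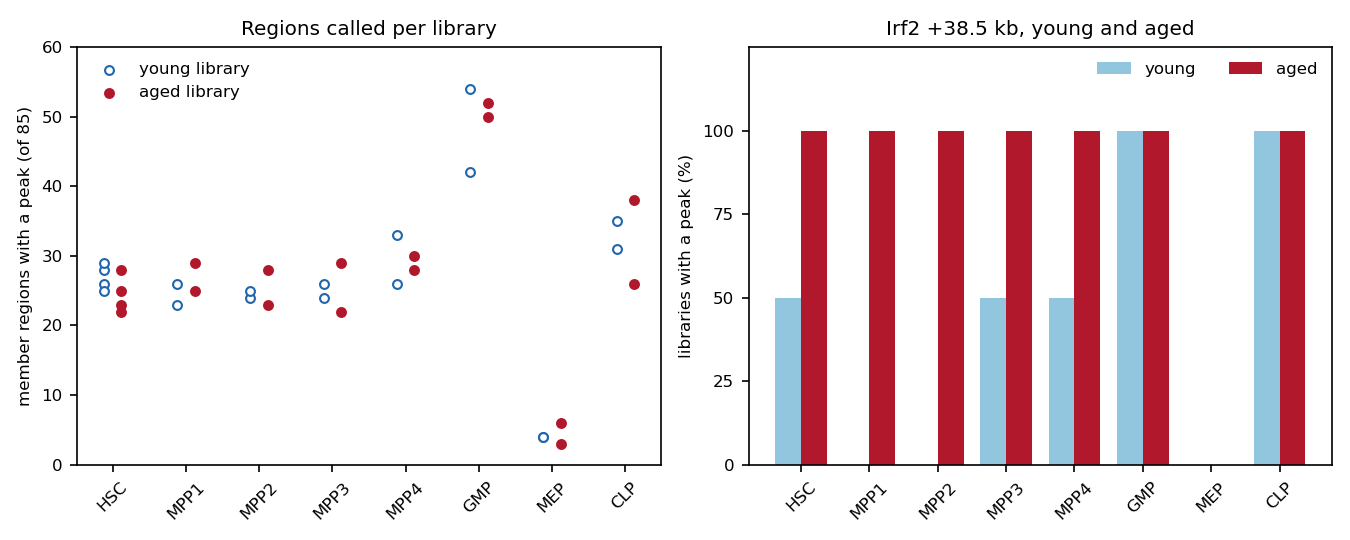
Left, number of the 85 IRF regions with a peak in each library (y axis) by fraction (x axis), young libraries as open and aged libraries as filled points. GMP libraries sit at 42 to 54 and MEP libraries at 3 to 6. Right, percent of the young (blue bars) and aged (red bars) libraries of each fraction with a peak at the Irf2 +38.5 kb region, called in 8 young against 16 aged libraries, a difference that did not pass the adjusted test.

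Of the regions called in every library of a contrast, 11 could be compared by FE in GMPs. After centring, 3 were higher and 4 lower than in HSCs and MPPs (limma), against 21.5% and 30.4% of the 12408 regions fitted. Without centring, which shifted GMP values by 0.54 on the log2 scale, the split was 7 higher and 4 lower, against 71.8% and 5.57% of the 12408 regions, so the count of higher ones was no excess. In CLPs 1 of 11 was higher and 4 lower, against 5.57% and 13.9%. In MEPs 1 of 3 was higher and 2 lower, against 23.8% and 15.3%, and without centring, a shift of -0.78, none was higher and 3 were lower, as were 93.6% of the 5443 regions fitted.

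Irf8 had elements called in HSCs and MPPs alone, in GMPs alone and in CLPs alone, beside others called in both GMPs and CLPs, and GMPs were not tested against CLPs. Apart from its promoter, 13 regions were called in 2 or more libraries, from 20.9 kb before to 86.7 kb after the TSS. They lay in introns of Irf8 or outside it, within the long gene model Gm20388 that spans the locus. No MEP library had a peak at any Irf8 region. None of the Irf8 calls below passed when each library was held to 9581 peaks, which removes peaks from every library but the smallest MEP library.

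The Irf8 TSS region (chr8:120736025-120736458) was called in all GMP and CLP libraries. FE was 12.8 and 12.2 in the young and 18.2 and 11.8 in the aged GMP libraries. In CLPs it was 7.69 and 8.29 in young and 8.64 and 6.6 in aged libraries. Among HSCs and MPPs it was called in 13 of 24 libraries, at 4.27 to 10.1, so GMP values lay above all of them. The difference in calls did not pass the test (adjusted p = 0.3, Fisher's exact test).

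The Irf8 -20.9 kb element (chr8:120715259-120715693) was called in all 24 HSC and MPP libraries and in no GMP, CLP or MEP library. FE in HSCs was 14.9, 17.2, 16.4 and 12.3 in the young and 13, 15, 8.55 and 9.9 in the aged libraries. MPP1 had 13.5 and 15.2 when young and 16.5 and 7.39 when aged, and MPP2 had 7.52, 8, 7.29 and 5.75 in the same order. All MPP2 values were at or below 8, lower than any young HSC or MPP1 value. MPP3 had 15, 10.4, 10.2 and 6.42, and MPP4 12, 11.4, 9.82 and 11.9. The loss of calls passed against HSCs and MPPs in GMPs (adjusted p = 0.000455), CLPs (0.00294) and MEPs (0.000966, Fisher's exact tests). At a -log10 q of 10 or more, the calls in CLPs and MEPs no longer passed, and requiring 50% of the region to be covered ended that in CLPs. A second element of the stem cell end, Irf8 +15.9 kb (chr8:120751988-120752491, intronic), was called in 7 of 8 HSC libraries, all 12 MPP1, MPP2 and MPP3 libraries and 1 aged GMP library. No MPP4, CLP or MEP library had it. FE in HSCs was 9.43, 13.2, 7.37 and 8.68 in young and 13.4, 9.38 and 5.88 in 3 aged libraries. Against HSCs and MPPs the lower number of calls passed in MEPs (adjusted p = 0.0489, Fisher's exact test) but not in CLPs (0.0912) or GMPs (0.17). The MEP call was lost when any of 23 single libraries was left out.

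Of the distal Irf8 regions, the one with the highest GMP values was +56.6 kb (chr8:120792716-120793126). FE was 19.3 and 18.2 in young and 20.6 and 17.9 in aged GMPs, with a mean of 19 ± 1.24 (SD, n = 4). It was already called in 3 of 4 MPP3 libraries, at 6.37, 7.18 and 7.88, and in 2 of 4 MPP4 libraries, at 8.76 and 4.23. No HSC, MPP1, MPP2, CLP or MEP library had a peak there, so the values of MPP3 and MPP4 lay between none and those of GMPs. The difference of GMPs from HSCs and MPPs passed (adjusted p = 0.0263, Fisher's exact test). Leaving out any 1 of the 4 GMP libraries ended this call (adjusted p = 0.0779 at most).

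Further elements were called in more GMP libraries. Irf8 +4.9 kb (chr8:120741104-120741321, intronic) had FE of 7.52, 11.5, 8.63 and 10.1 in the 4 GMP libraries and was called in no other. Irf8 +30.5 kb (chr8:120766710-120766935) had 6.41, 14.5, 6.77 and 12.1 and was likewise called in GMPs alone. Irf8 -16.4 kb (chr8:120719755-120720206), on the side of the multipotent element, had 7.39, 9.09, 12.3 and 9.59 in GMPs. It was also called in 1 young and 1 aged CLP library, at 7.34 and 7.17, and in no HSC or MPP library. Each of these 3 passed in GMPs with an adjusted p of 0.000455 (Fisher's exact test), although +30.5 kb did not at -log10 q of at least 10 and -16.4 kb did not with 50% of the region covered. Irf8 +27.1 kb (chr8:120763350-120763590) was called in 3 GMP libraries at 8.54, 8.85 and 8.85 and in 1 aged MPP4 library at 5.9 (adjusted p = 0.0212, Fisher's exact test). That call was lost without either aged GMP library or without young GMP replicate 2 (adjusted p up to 0.098).

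Irf8 +41.0 kb (chr8:120777225-120777589) was called in CLPs alone. FE was 6.38 and 7.01 in young and 10.5 and 6.31 in aged CLPs, and no other library had a peak (adjusted p = 0.00294, Fisher's exact test). No GMP library had this element, and no CLP library had the +56.6 kb element of GMPs. With -log10 q of at least 10 it was called in 1 CLP library and did not pass. Irf8 -10.9 kb (chr8:120725317-120725680) was called in 3 MPP4 libraries (5.43, 6.97 and 8.58), both young CLP libraries (6.38 and 5.93) and 1 aged GMP library (6.12). None of its tests passed.

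The remaining Irf8 regions were called in few libraries and passed no test. Irf8 +7.7 kb (chr8:120743944-120744196, intronic) was called in HSCs alone, in 3 young libraries (6.81, 11.5 and 7.49) and 1 aged library (5.38). Irf8 +47.6 kb was called in 2 GMP libraries (6.01 and 6.73) and in both aged CLP libraries (6.48 and 7.7), +62.3 kb in 1 aged GMP and 1 aged CLP library (6.71 and 6.15), and +86.7 kb in 2 HSC libraries and 1 aged MPP1 library (6.29, 7.49 and 7.25). Another 3 regions, at +92.1, +95.8 and +153.0 kb, were called in 1 library each.

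**Figure D2:**
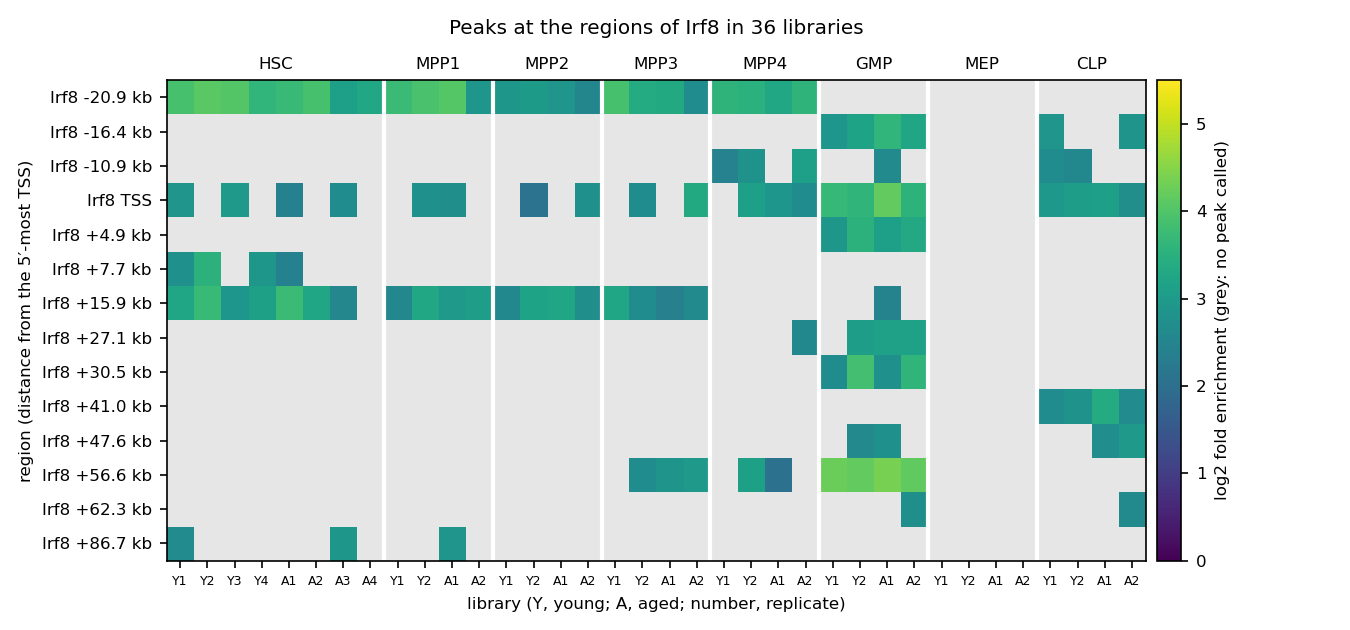
Log2 FE (colour scale) at the 14 Irf8 regions called in 2 or more libraries (rows, named by distance from the most 5′ TSS) in the 36 libraries (columns, Y young, A aged), with grey where no peak was called. The -20.9 kb row is filled in all 24 HSC and MPP libraries and empty beyond them, the +56.6 kb row is brightest in GMPs, and the +41.0 kb row is filled in CLPs alone.

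Irf4 gained its highest promoter values in GMPs and lost the promoter peak in MEPs. The TSS region (chr13:30748948-30749472) was called in 32 libraries. FE was 32.4 and 33.4 in young and 32.7 and 29 in aged GMPs, and 11.7, 12.4, 12.7 and 16.6 in CLPs. In the 24 HSC and MPP libraries it ran from 6.79 to 13.6 with a median of 9.27, so GMP values lay far above all of them. After centring, GMPs were higher by 1.26 ± 0.12 (log2, SE, limma adjusted p = 1.51e-09), a ratio of 2.39, and CLPs by 0.52 ± 0.12 (adjusted p = 0.0022). No MEP library had the peak (adjusted p = 0.000966, Fisher's exact test).

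Downstream of Irf4 the open elements changed places. Irf4 +68.3 kb (chr13:30817314-30817821), in an intron of the neighbouring gene Exoc2, was called in all 24 HSC and MPP libraries, at 8.03 to 17.1 with a median of 11.6, and in no GMP, CLP or MEP library. Irf4 +70.9 kb (chr13:30819970-30820251), in the same gene, had FE of 20.8, 19.5, 20.6 and 21.8 in GMPs. Outside GMPs it was called in 1 aged MPP2 library, at 7.56. The losses at +68.3 kb passed in GMPs, CLPs and MEPs (adjusted p = 0.000455, 0.00294 and 0.000966), and the gain at +70.9 kb passed in GMPs (0.00185, Fisher's exact tests), also when each library kept 9581 peaks.

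Irf4 +37.1 kb (chr13:30786060-30786641) was called in 32 libraries, with no MEP library among them (adjusted p = 0.000966, Fisher's exact test). FE in HSCs was 14.4, 14.8, 17.9 and 11.9 in young and 15.3, 13.7, 21.5 and 18.5 in aged libraries, against 6.54, 8.71, 8.22 and 10.8 in GMPs. GMPs were lower by -1.23 ± 0.12 (log2, limma adjusted p = 1.84e-09), a change opposite to that of the promoter. CLPs were lower by -0.42 ± 0.12 (adjusted p = 0.0104), a call lost without young CLP replicate 1 (0.118). Irf4 -10.6 kb was called in the 4 GMP libraries alone, at 11.3, 9.23, 7.95 and 14.4 (adjusted p = 0.000455, Fisher's exact test). Irf4 +43.2 kb, called in 21 of 24 HSC and MPP libraries, had no peak in GMPs and MEPs (adjusted p = 0.00833 and 0.0167, Fisher's exact tests). It passed neither test at -log10 q of at least 10 or at 50% cover, and the MEP call was lost without any 1 MEP library. Irf4 +65.2 kb, in a UTR of Exoc2, was called in all 4 GMP libraries and in 4 of 24 HSC and MPP libraries (adjusted p = 0.0158, Fisher's exact test), a call lost without young GMP replicate 2 (0.0509).

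Irf1, the interferon-induced activator, kept its promoter open in nearly every library. The TSS region (chr11:53769622-53770230) was called in 34 libraries, all but 1 young and 1 aged MEP library. FE was 18.7 to 19.3 in GMPs, 10.4 to 15 in CLPs, 6.37 and 7.15 in 2 MEP libraries and 5.52 to 14.4 in HSCs and MPPs. After centring, the GMP difference was 0.17 ± 0.14 (log2, limma adjusted p = 0.329). The intergenic Irf1 -6.2 kb region was called in 33 libraries, at 7.61 to 14.7 in HSCs and MPPs and 13.3 to 16.8 in GMPs. One aged MEP library had a peak there at 5.26, and the loss in MEPs passed (adjusted p = 0.0134, Fisher's exact test) but was lost without any of the 3 other MEP libraries.

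Irf1 had 4 further regions that were called in more GMP libraries. Irf1 -21.2 kb had FE of 10.5, 13, 9.02 and 10.5 and Irf1 -7.0 kb 4.25, 3.77, 5.34 and 6.28 in the 4 GMP libraries, and neither was called elsewhere (adjusted p = 0.000455 for both, Fisher's exact tests). The -7.0 kb element, whose GAS and ISRE letters are printed above, had the lower values and did not pass at -log10 q of at least 10. Irf1 -21.9 kb was called in the 4 GMP libraries at 8.79, 10.3, 10.6 and 8.97 and in 1 MPP3 and 1 MPP4 library (adjusted p = 0.00491, Fisher's exact test). Irf1 +0.6 kb, over an alternative TSS, was called in 3 GMP libraries alone, at 4.97, 4.95 and 5.88 (adjusted p = 0.00638, Fisher's exact test). The last 2 did not pass with 50% of the region covered.

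Irf2, which can oppose IRF1, had the most regions, 35 from -52.8 to +149.0 kb. Those at -52.8, +23.0, +38.5, +71.7, +79.2, +112.1, +130.0 and +149.0 kb lay outside the rule for naming, as did Irf4 +17.8 and +84.4 kb, and were chosen after their values were seen. Its TSS region (chr8:46739278-46739979) was called in all 36 libraries. FE was 17.7 to 21.2 in GMPs, 11.6 to 16.3 in CLPs, 10.8 to 17.5 in HSCs and MPPs and 5.45, 5.83, 6.16 and 5.23 in MEPs. After centring, GMPs differed by 0.03 ± 0.08 (log2, adjusted p = 0.81) and MEPs were lower by -0.45 ± 0.08 (limma adjusted p = 7.51e-05).

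Irf2 -52.8 kb (chr8:46686696-46687266), also called in all libraries, moved the other way. FE was 6.88 and 11 in young and 5.58 and 13.8 in aged GMPs, against 13.8 to 27.6 in HSCs and MPPs and 19.7 to 22.5 in CLPs. GMPs were lower by -1.73 ± 0.16 (log2, limma adjusted p = 6.08e-10), a ratio of 0.302. In MEPs, at 13.1, 14.8, 16.3 and 14.2, the centred value was higher by 0.34 ± 0.12 (adjusted p = 0.0202) although raw FE lay below the HSC and MPP median of 19.7. The MEP call was lost without young MEP replicate 2 or aged MEP replicate 1 (adjusted p up to 0.0812), and without centring the difference was -0.445.

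Irf2 +109.4 kb (chr8:46848871-46849353) was, like Irf8 -20.9 kb and Irf4 +68.3 kb, called in all 24 HSC and MPP libraries and nowhere else. These were the 3 of 85 regions (3.53%) with that pattern, against 113 of all 105005 regions (0.108%). All 3 lie nearer to the TSS of a gene that is not protein-coding (Gm24239 for Irf8 -20.9 kb, Gm29675 for Irf4 +68.3 kb and Gm45481 for Irf2 +109.4 kb), so with TSSs of all biotypes 0 of 34 IRF regions had the pattern. The losses at Irf2 +109.4 kb passed in GMPs, CLPs and MEPs (adjusted p = 0.000455, 0.00294 and 0.000966, Fisher's exact tests). FE in HSCs was 11.2, 9.91, 10.7 and 8.9 in young and 8.57, 8.8, 8.59 and 8.92 in aged libraries. In MPP3 it was 6.05, 8.99, 3.81 and 6.48 and in MPP4 7.18, 8.86, 5.09 and 4.82. It was thus lower than in HSCs already within the multipotent fractions, by -0.75 ± 0.13 in MPP3 and -0.67 ± 0.11 in MPP4 (log2, limma adjusted p = 0.00109 and 0.000535). It was the 1 lower region among 14 IRF regions fitted in MPP3 and 15 in MPP4, against 10.4% and 8.9% of all regions fitted.

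Irf2 +112.1 kb (chr8:46851541-46852034), close by, rose instead. FE was 8.25, 9.04, 6.38 and 10.7 in young and 6.44, 6.2, 3.87 and 3.69 in aged HSCs, 13.5, 11.8, 10.6 and 13.4 in MPP3 and 12.3, 11.7, 10.7 and 12.7 in MPP4. It reached 24.7, 25.6, 23.6 and 26.7 in GMPs, above every other library. The centred difference was 0.82 ± 0.21 in MPP3 and 0.79 ± 0.21 in MPP4 against HSCs (limma adjusted p = 0.0158 and 0.0176). It was the 1 higher region in each contrast, against 2.48% and 4.31% of all regions fitted. In GMPs the difference from HSCs and MPPs was 0.78 ± 0.16 (limma adjusted p = 0.000206). The MPP3 and MPP4 calls were lost without either aged library of the fraction (adjusted p up to 0.0829 and 0.0914).

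Of the other Irf2 regions, those at +25.5, +79.2, +112.1 and +130.0 kb were called in all but the MEP libraries (adjusted p = 0.000966 each, Fisher's exact tests), though +79.2 kb did not pass with 50% of the region covered. In GMPs FE was lower at +79.2 kb by -1.5 ± 0.14 and at +130.0 kb by -0.90 ± 0.10 (log2, limma adjusted p = 1.06e-09 and 2.36e-08). In CLPs it was lower at +25.5 kb by -0.94 ± 0.13, at +79.2 kb by -0.72 ± 0.15 and at +130.0 kb by -0.62 ± 0.11 (adjusted p = 4.12e-06, 0.00069 and 5.52e-05). At +25.5 kb the CLP libraries had 6.05, 6.37, 7.04 and 6.37, below all HSC and MPP libraries (8.12 to 17.4). Irf2 -25.6 and +78.6 kb were called in the 4 GMP libraries alone, at 6.59 to 12.6 and 12.2 to 15.9. Irf2 +94.9 kb (6.59 to 15.6 in GMPs) and +146.6 kb (11.3 to 13.7) were called in the 4 GMP libraries and, in aged CLPs, in 1 and 2 libraries (adjusted p = 0.000455 each in GMPs, Fisher's exact tests). Irf2 +71.7 kb (chr8:46811286-46811644), in an intron, had FE of 26.6, 27.5, 25 and 23 in GMPs and was called in 3 of 24 HSC and MPP libraries at 6.45 to 7.58 (adjusted p = 0.00833, Fisher's exact test), also when each library kept 9581 peaks. Irf2 +23.0 kb was called in 3 CLP libraries and in no HSC or MPP library (adjusted p = 0.0292, Fisher's exact test), a call lost without any of those 3 libraries (adjusted p up to 0.153). Irf2 +149.0 kb was called in the 8 HSC and 4 MPP1 libraries alone, at 12.7 to 16.4 and 6.87 to 10.9.

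**Figure D3:**
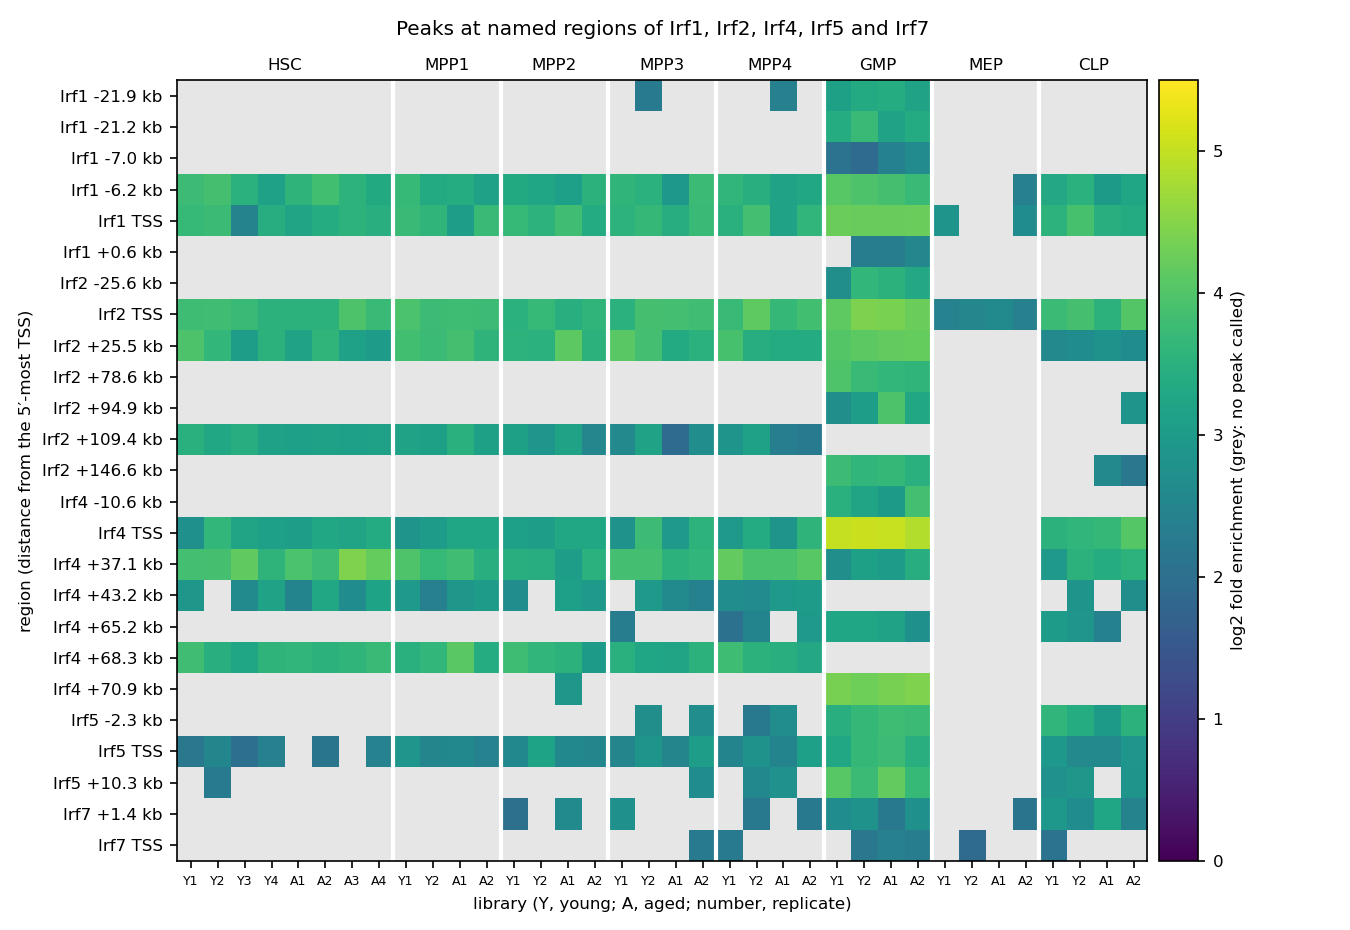
Log2 FE (colour scale) at named regions of Irf1, Irf2, Irf4, Irf5 and Irf7 (rows, named by distance from the most 5′ TSS) in the 36 libraries (columns, Y young, A aged), with grey where no peak was called. Irf2 +109.4 kb and Irf4 +68.3 kb are filled in the 24 HSC and MPP libraries alone, and Irf4 +70.9 kb is bright in GMPs.

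Irf5 and Irf7, the factors of pattern recognition pathways, had low values at their promoters, for Irf7 in every fraction and for Irf5 outside GMPs. Irf5 had 2 TSS regions. The one 2.6 kb into the gene (chr6:29529038-29529510) was called in 30 libraries and the most 5′ one in 2. At the former, FE was 9.89, 12.7, 13.7 and 10.9 in GMPs, 5.99 to 7.6 in CLPs and 4.05 to 9.06 in 22 of 24 HSC and MPP libraries. The 2 without a peak were aged HSC libraries. No MEP library had the peak (adjusted p = 0.00923, Fisher's exact test), which did not pass at -log10 q of at least 10. Irf5 -2.3 kb was called in all GMP libraries (10.9, 12.7, 13.9 and 13.4) and all CLP libraries (12.3, 10.6, 7.97 and 11.5) but in 4 of 24 HSC and MPP libraries, each of them MPP3 or MPP4. Irf5 +10.3 kb, in a UTR, was called in all GMP libraries (16.9, 13.4, 18.2 and 12.8), 3 CLP libraries and 4 of 24 HSC and MPP libraries. Both passed in GMPs (adjusted p = 0.0158, Fisher's exact tests) and did not without young GMP replicate 2 (0.0509).

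The Irf7 TSS region (chr7:141266169-141266609) was called in 7 libraries, none of them HSC. FE was 4.61, 5.26 and 4.95 in 3 GMP libraries and 3.77 to 4.76 in 1 library each of MPP3, MPP4, MEP and CLP. The GMP difference was at the threshold (adjusted p = 0.0461, Fisher's exact test) and was lost without any of 25 single libraries. Irf7 +1.4 kb, over a coding exon, was called in all 4 GMP libraries (6.42, 7.07, 4.68 and 6.81), all 4 CLP libraries (7.62, 6.4, 9.44 and 5.47), 1 MEP library and 5 of 24 HSC and MPP libraries. It passed in GMPs (adjusted p = 0.0263, Fisher's exact test), though not without any 1 GMP library (adjusted p up to 0.0779). Irf7 -2.6 kb, outside the rule for naming and chosen after its values were seen, was called in 18 libraries and passed no test. Its FE was 10.6 to 11.1 in the 4 GMP libraries and 6.26 to 11 in 6 HSC libraries.

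Irf9 had a single region, over its TSS (chr14:55603822-55604491), called in all 36 libraries. FE was 25.3, 26.4, 26.6 and 24 in GMPs, 10.8 to 15.2 in CLPs, 9.89 to 16.7 in HSCs and MPPs and 4.5, 6.26, 7.62 and 4.08 in MEPs. GMP values lay above and MEP values below all others. After centring, GMPs were higher by 0.36 ± 0.10 (log2, limma adjusted p = 0.00405), which did not pass with the mean FE over summits, and MEPs lower by -0.54 ± 0.12 (0.000709).

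**Figure D4:**
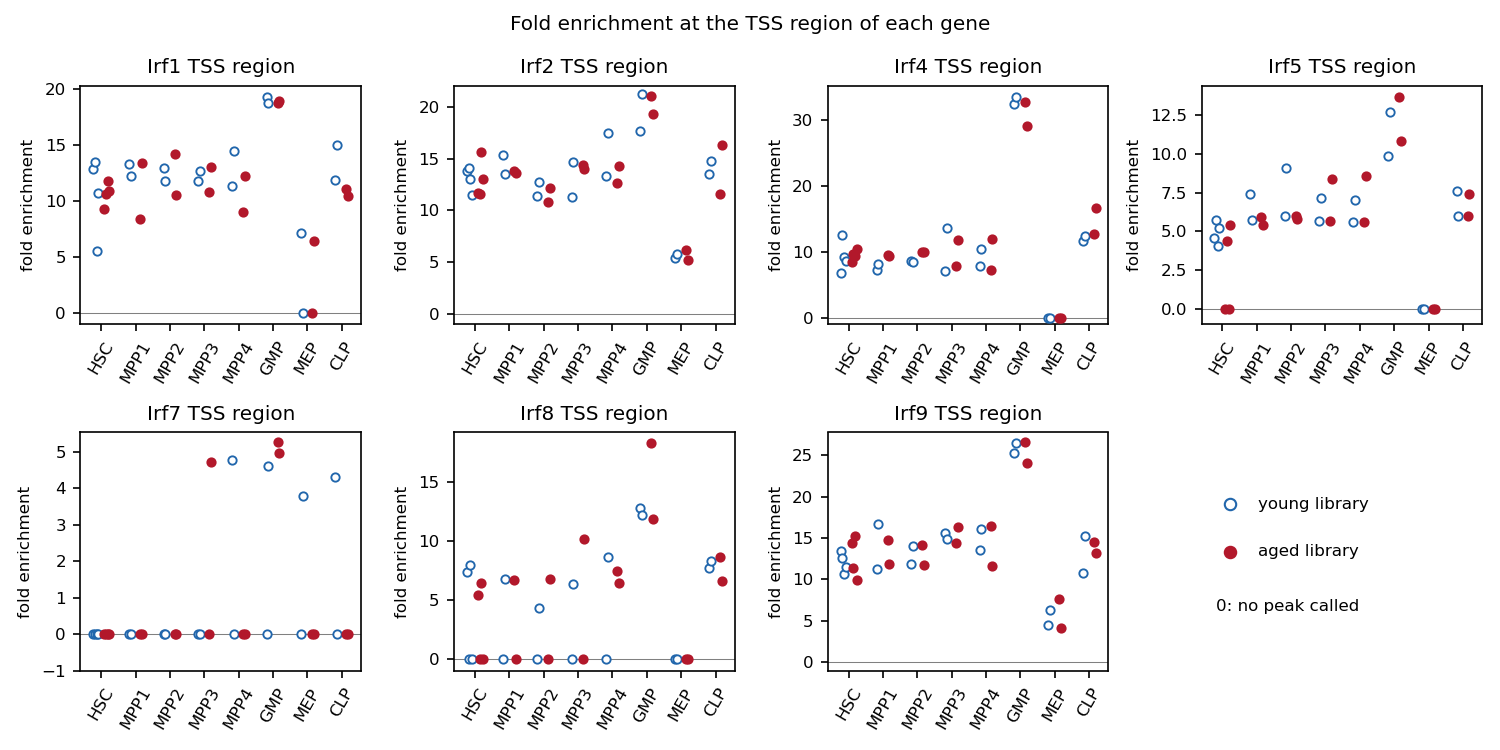
FE (y axis, raw column 7) at the TSS region of each gene by fraction (x axis), young libraries as open and aged libraries as filled points, with 0 where no peak was called. GMP values of Irf4 lie at 29 to 33.4 against at most 16.6 elsewhere, and the Irf7 region was called in 7 libraries.

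No IRF region differed between ages after adjustment. Calls over all fractions were tested by an exact conditional test with fraction as the stratum, and 0 of 82 IRF regions passed, as did 0% of 99670 regions in all, of which 1169 had an unadjusted p under 0.05. In HSCs alone 0 of 25 regions passed Fisher's exact test, 0% of 34285 in all, where the smallest p that 4 against 4 libraries allow is 0.0286 and 365 regions were under 0.05 unadjusted. With so few regions at that p, none could pass adjustment, so this test decides nothing. By FE (limma), 0 of 3 IRF regions passed over all fractions and 0 of 16 in HSCs, as did 0% of 5335 and 0% of 17340 regions, with 376 and 1544 of them at an unadjusted p under 0.05. The age by fraction interaction passed in 0 of 3 IRF regions and 0% of 5335, with 257 under 0.05 unadjusted. The study itself, with a count model on reads, reported regions that were more open or more closed in aged than in young HSCs. That model could not be run on peak lists, so the tests here do not show that accessibility stayed the same with age.

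One IRF region had an unadjusted p under 0.05 in the call test over all fractions. Irf2 +38.5 kb (chr8:46778041-46778519, intronic) was called in all 16 aged libraries outside MEPs and in 8 of the 16 young ones. FE in the aged libraries was 8.57, 7.85, 9.1 and 9 in HSCs, 8.55 and 6.25 in MPP1, 4.33 and 4.47 in MPP2, 6.43 and 8.22 in MPP3 and 9.53 and 7.27 in MPP4. Of the young libraries, 2 HSC (6.49 and 10.3), 1 MPP3 (8.76) and 1 MPP4 (9.03) library had the peak, so values overlapped between ages where both had it. GMPs had 23.6, 30.1, 29.3 and 28.2 and CLPs 6.48 to 9.82, all called at both ages. The unadjusted p was 0.00298 (exact conditional test, adjusted p = 1), and 0.437 when peaks needed a -log10 q of at least 10.

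By FE in HSCs, 3 IRF regions had an unadjusted p under 0.05 and none passed. At Irf2 +112.1 kb, whose HSC values are given above, 3 of 4 young libraries lay above all aged ones, and aged HSCs differed by -0.79 ± 0.23 (log2, limma adjusted p = 0.341). At Irf4 +84.4 kb FE was 5.57, 8.57, 4.41 and 4.86 in young and 12, 10.1, 8.79 and 5.19 in aged HSCs, a difference of 0.61 ± 0.24 (adjusted p = 0.483). At Irf8 -20.9 kb the difference was -0.41 ± 0.19 (adjusted p = 0.555), with overlapping groups.

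Other genes of the pathway were taken at the region over or nearest to their TSS. Of the receptors and signalling proteins of interferon (9 genes, such as Ifnar1, Ifngr1, Jak1 and Jak2), 7 were called in all 36 libraries, against 5.08% of all regions. None passed a call test between fractions, where 22.9% of all regions were called in more GMP and 11.9% in fewer MEP libraries. The 7 called in all 36 libraries could not pass such a test, so no conclusion is drawn from this count. Of the others, Ifnar2 was called in 34 libraries, and Ifngr2, the signalling chain of the interferon gamma receptor, in 21, with 4 of 8 HSC, 0 of 4 MPP2, 0 of 4 MEP and 4 of 4 GMP libraries among them. By FE in GMPs, 0 of 7 were higher and 1 was lower, against 21.5% and 30.4% of all regions fitted. The lower one was Ifngr1, the chain that binds interferon gamma (-0.39 ± 0.10, log2, limma). Without centring 6 of the 7 were higher and none lower, against 71.8% and 5.57% of all regions fitted. The Ifngr1 difference then turned to 0.154. By FE in MEPs, 1 of 7 was higher (Jak2, 0.64 ± 0.10) and 2 lower, among them Tyk2 (-0.60 ± 0.10, log2, limma), against 23.8% and 15.3%. Without centring none was higher and 6 were lower, against 0.184% and 93.6%, and the Jak2 difference turned to -0.143. In CLPs 2 of 7 were lower, Tyk2 by -0.39 ± 0.09 and Stat2 by -0.47 ± 0.10 (log2, limma), against 13.9% of all regions fitted. In MPP4 the same pair were the 2 of 8 that were lower than in HSCs, against 8.9%, and neither passed without centring. Of 20 interferon-stimulated genes, 7 were called in all 36 libraries, against 5.08% of all regions (Psmb9 and Tap1 face each other across one interval), 7 were called in fewer MEP libraries (Ifit1, Ifit2, Ifit3, Gbp2, Irgm1, Ifi47 and Xaf1), against 11.9% of all regions, and none passed in GMPs or CLPs. The genes were taken at regions over or near a TSS and the background at all regions. Of the 20, 11 were called in all 24 HSC and MPP libraries and could not be called in a higher share of GMP or CLP libraries. By FE in GMPs, 4 of 11 were higher, among them the RNA sensor gene Ifih1 by 0.58 ± 0.10 and Ifi47 by 0.57 ± 0.11. Gbp3 was the 1 lower gene (-0.28 ± 0.11), and the median over the 11 was 0.08. Of all regions fitted, 21.5% were higher and 30.4% lower. Without centring all 11 were higher, against 71.8% of all regions fitted, and the Gbp3 difference turned to 0.265. By FE in CLPs 0 of 10 were higher and 2 lower, against 5.57% and 13.9% of all regions fitted. The 2 were Bst2 (-0.65 ± 0.11) and Cxcl10 (-0.44 ± 0.14, log2, limma). In MEPs 0 of 7 were higher and 2 lower (Usp18, -0.29 ± 0.11, and Ifih1, -0.24 ± 0.10), against 23.8% and 15.3%, and without centring all 7 were lower, against 93.6%. In MPP3 0 of 12 were higher than in HSCs and 2 lower (Ifit2, -0.49 ± 0.10, and Rsad2, -0.51 ± 0.12), against 2.48% and 10.4%, and Ifit2 did not pass without centring. In MPP4 1 of 13 was higher (Cxcl10, 0.66 ± 0.14) and 1 lower (Rsad2, -0.41 ± 0.12, which did not pass without centring), against 4.31% and 8.9%.

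Among genes of IRF4 and IRF8 partners, the TSS region of Batf3, a cofactor in dendritic cells, was called in 4 of 4 GMP and 2 of 24 HSC and MPP libraries (adjusted p = 0.00491, Fisher's exact test). It was the 1 of 7 that passed in GMPs by calls, a share no higher than the 22.9% of all regions called in more GMP libraries. The region nearest to Spi1, which encodes PU.1, was called in all but the MEP libraries and was higher in GMPs by 0.36 ± 0.14 and in MPP3 and MPP4 than in HSCs by 0.57 ± 0.18 and 0.61 ± 0.18 (log2, limma adjusted p = 0.0269, 0.0435 and 0.0329). In CLPs the same region was lower than in HSCs and MPPs by -0.40 ± 0.14 (log2, limma adjusted p = 0.04). Id2 was higher in GMPs by 0.43 ± 0.10 (adjusted p = 0.000545). Of the 7, Spi1, Batf and Zeb2 were called in fewer MEP libraries, against 11.9% of all regions. Of the IRF2 binding proteins, Irf2bp2 was called in 4 of 4 GMP and 4 of 24 HSC and MPP libraries (adjusted p = 0.0158, Fisher's exact test), and 2 of 3, Irf2bp1 and Irf2bpl, were called in fewer MEP libraries, against the same 11.9%. The TSS region of Irf3 was called in 32 libraries, with 1 of 4 MEP libraries among them (adjusted p = 0.0409, Fisher's exact test). No gene of these lists passed a test between ages.

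The genes most like each TSS region over the 36 libraries (Pearson r of log2 FE, 0 where not called, over 13178 genes) are given as a description. They were Nipbl, Ikzf1 and Scml4 for Irf4 (r = 0.978, 0.972 and 0.971), Bcr, Nrros and Ikzf1 for Irf2 (0.96, 0.954 and 0.953), Calm5, Clec4a2 and Ttll9 for Irf5 (0.975, 0.963 and 0.923), and Nipbl, Sap30 and Rnf185 for Irf9 (0.931, 0.931 and 0.93). For Irf1 they were Zfp810, Uggt1 and Atf4 (0.948, 0.948 and 0.946). For Irf8 they were Ehd4, Maz and Aoah (0.803, 0.769 and 0.758) and for Irf7 Cbr1, Klrb1c and Msh4 (0.753, 0.753 and 0.652), lower than for the other members. The Irf8 -20.9 kb element was most like the TSS regions of Esrrg, Ptn and Pdgfd (0.962, 0.938 and 0.932), called in 24 or 25 libraries. Number of peaks and FE scale differ between fractions and enter each of these values.

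Motif letters within 100 bp of the median summit were compared with those of 104825 regions on the main chromosomes. The PU.1-IRF composite core was found in 12 of 85 IRF regions (14.1%) against 8.86% of all, PU.1 in 12 (14.1%) against 8.43%, CEBP in 19 (22.4%) against 13.2% and the ISRE core in 5 (5.88%) against 8.26%. The narrow GAS pattern was found in 2 regions (2.35%), Irf1 -7.0 kb and Irf8 -20.9 kb, against 0.755%, and the wide one in 7 (8.24%) against 5.68%. GATA letters were found in 6 (7.06%) against 3.84%. The shares of RUNX (10.6% against 11.3%), the E-box (12.9% against 14.6%) and AP-1 (9.41% against 11.3%) lay a little below those of all regions. No test was run on these shares.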

How the data were processed

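ATAC-seq peaks of 36 libraries were used. Per the study's methods and the labels, 20000 sorted cells per library were tagmented, fragments of 240 to 360 bp were sequenced as single 60-base reads, aligned to mm10 with Bowtie2, brought to equal read numbers with SAMtools and called per library with MACS2 2.2.6 at a q threshold of 0.001. The deposited lists give, for each peak, the fold enrichment over local background (a ratio), the -log10 p and -log10 q values and a score. Read counts are not among these values, and differential accessibility by a count model, as in the study's methods, was therefore not run. Depth was thus equal between libraries by the authors' account, and its absolute value is unknown.

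From 1204561 peaks, 105005 merged regions were made (overlap of 1 bp or more) and assigned to the nearest TSS of protein-coding genes (GENCODE vM21). A region's fold enrichment in a library was the highest value of its peaks, which depends on the fragment length and pseudocount used in peak calling. Calls were compared by Fisher's exact test or, for age over all fractions, by an exact conditional test stratified by fraction. Log2 fold enrichment was fitted with limma 3.58.1 (R 4.3.3) at regions called in every library of a contrast, centred on each library's median over 5335 regions. All p-values are two-sided, and adjusted p are Benjamini-Hochberg over all regions of a test, past the threshold under 0.05. Each fraction test of GMPs, CLPs and MEPs used the same 24 HSC and MPP libraries, so the contrasts share controls. The scripts were tested on simulated data. The alternatives were a -log10 q of at least 10, a peak over 50% of the region, 9581 peaks per library, TSSs of all biotypes, no centring, the mean over summits, a replicate block and leaving out each library.

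Named regions were those nearest to each TSS, every Irf8 region called in 2 or more libraries and, for the other genes, up to 6 that passed a test. The members and gene lists were chosen with earlier results of these data known. Some genes of the lists are not reported here. Same-numbered young and aged libraries did not deviate together, so the replicate number was not used as a pairing. Other tools were Python 3.11.15, scipy 1.17.1 and matplotlib 3.10.9.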

Additional observations from a re-analysis of the deposited data

How the results depend on the processing

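With 9581 peaks per library, 4 of 48 call results of single regions kept their side of the threshold (Irf4 +37.1 kb and Irf2 +130.0 kb in MEPs, Irf4 +70.9 kb and Irf2 +71.7 kb in GMPs); by construction fewer regions then hold a peak. IRF regions called in more libraries were then 3 in GMPs (24 before) and 0 in CLPs (2), and those called in fewer were 0 in CLPs (3) and 2 in MEPs (15). With TSSs of all biotypes, 34 regions were assigned in place of 85. Regions called in more and fewer libraries were then 11 and 0 in GMPs and 1 and 0 in CLPs, and 3 were called in fewer MEP libraries. By fold enrichment 0 were lower in GMPs and 0 in CLPs, 0 higher in MEPs, and 0 higher or lower in MPP3 and in MPP4. With -log10 q of at least 10, 1 region was called in more CLP and 9 in fewer MEP libraries, and by fold enrichment 1 was lower in GMPs, 2 in CLPs and 0 in MEPs, 0 were higher or lower in MPP3 and 0 higher in MPP4. With a peak over 50% of the region, 5 were called in more CLP libraries, and Irf4 +17.8 kb in GMPs changed sign to -4.17 percentage points. Without centring, 7 regions were higher in GMPs and 0 in MEPs, where Irf2 -52.8 kb changed sign to -0.445 (log2). For the genes of the lists, taken without centring after the data were seen, 19 of 26 results kept their side of the threshold, 4 no longer passed and 3 changed sign (log2), Ifngr1 and Gbp3 in GMPs to 0.154 and 0.265 and Jak2 in MEPs to -0.143. Of 56, 48, 19 and 19 single results, 15, 12, 1 and 0 kept their sign but no longer passed with -log10 q of at least 10, at 50% cover, with the mean over summits and without centring. The cause of these changes was not tested.

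With 1 library left out, regions called in more GMP libraries numbered 16 to 27 and in fewer 4 to 5, in more CLP libraries 1 to 4 (4 without young MPP4 replicate 2, 1 without young CLP replicate 1 or 2 or aged CLP replicate 2), and in fewer MEP libraries 10 to 15. By fold enrichment 3 to 4 were lower in CLPs, 0 to 1 higher in MEPs (0 without young replicate 2 or aged replicate 1), 0 to 1 higher in MPP3 (0 without either aged library), 1 to 3 lower in MPP3 (3 without young replicate 1) and 0 to 1 higher in MPP4 (0 without either aged library). Of 67 single results, 49 passed under every omission and 18 did not under at least 1. The correlation of deviations between the 18 same-numbered pairs of libraries was -0.0792 to 0.179, over 0.1 in 3, so the numbers gave no pairing. With a replicate block, 0 IRF regions passed each age test, as without it, and Irf2 +38.5 kb had an unadjusted exact p of 0.00781 against 0.00298 (0.000992 to 0.00595 with 1 library left out). Its excess in aged libraries of 44.4 percentage points was 16.7 with -log10 q of at least 10, 0 at 50% cover and -5.56 with 9581 peaks. The absolute depth is unknown, so a region without a peak may hold reads under the calling threshold.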
